A study of Caenorhabditis elegans with 24 samples.

Results

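The flp genes of Caenorhabditis elegans encode FMRFamide-like peptides, a family of neuropeptides whose precursors are cut into short peptides ending in an amidated arginine-phenylalanine. They were taken as every gene of the deposited expression table whose symbol is flp followed by a number, which gave 30 of 21689 genes (flp-1 to flp-22, flp-24 to flp-28 and flp-32 to flp-34). RNA was sequenced from whole young adults on the first day of adulthood, fed OP-50-1 bacteria at 20 °C. The alleles were daf-16(mu86), daf-2(e1370) and htz-1(bon101), and there were 6 genotypes of 4 libraries each. They carried all 3 alleles (daf-16;daf-2;htz-1, called the triple mutant below), those of daf-2 and htz-1 (daf-2;htz-1), that of htz-1 alone (htz-1), those of daf-16 and daf-2 (daf-16;daf-2, called the daf-16 double mutant), that of daf-2 alone (daf-2), or none (wt, the N2 strain). The series title places the study in the regulation of lifespan by HTZ-1. H2A.Z, a variant of histone H2A, is the product of htz-1. The insulin/IGF-1 receptor is the product of daf-2, and daf-16 encodes the FOXO transcription factor that acts below that receptor. The alleles are carried by all cells of the animal.

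FLP precursors are made mainly by neurons, where a proprotein convertase cuts them, a carboxypeptidase trims the fragments and a pair of amidating enzymes finishes the carboxyl end. The mature peptides leave the cell from dense core vesicles and act on G protein-coupled receptors of other neurons, muscle, gut and gonad. Individual members are known for roles in sleep, locomotion, feeding, fat storage, egg laying, mating and learning.

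The values were regularized log2 (rlog) values, a log2 scale of normalized counts on which differences of genes with few reads are shrunk towards 0. The reads behind each value are unknown, so a level has no counting interval. Differences below are the first genotype minus the second on this scale, with the standard error (SE) from limma, and "called" means an adjusted p below 0.05 over the 14482 genes with a mean of at least 3. This minimum kept 24 flp genes, with flp-20 just inside (mean 3.01) and flp-2 just outside (2.51). The 6 genes below it, flp-2, flp-4, flp-21, flp-25, flp-26 and flp-33, are described by their values alone. The tested flp-13 (mean 3.33) averaged 4.39 in daf-2;htz-1 and 4.18 in htz-1, but 2.23 in daf-2 and 2.94 in wt, which are below the minimum. Nothing says whether the 4 libraries of a genotype came from separate cultures, so the p-values reflect no more than the spread among libraries, which may be technical. In whole animals, fewer cells that make a peptide and less RNA per cell cannot be told apart.

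The median correlation of a library with the others of its genotype over tested genes lay between 0.951, in triple mutant library 3, and 0.987. Library medians over tested genes were lowest in daf-2 library 1 (7.42), triple mutant library 2 (7.44), wt library 1 (7.46) and triple mutant library 4 (7.47), and reached 7.81 elsewhere. The htz-1 transcript ranged from 11.20 to 11.70 in the libraries with the bon101 allele and from 10.62 to 11.30 in those without it, and the sources used here do not say how bon101 alters the gene. The daf-16 transcript averaged 9.32 ± 0.57 in the triple mutant, 10.17 ± 0.17 in daf-2;htz-1, 9.91 ± 0.24 in htz-1, 9.87 ± 0.13 in the daf-16 double mutant, 10.32 ± 0.11 in daf-2 and 10.74 ± 0.35 in wt (SD, n = 4 each), so that htz-1 and the daf-16 double mutant overlapped.

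The flp genes are scattered over all 6 chromosomes. On WBcel235, 13 of the 30 (43.3%) lie on X, which holds 14.1% of the genes in the table, and the others are on chromosome IV (5), III (4), II (3), V (3) and I (2). flp-28 (10087314 to 10087966), flp-3 (10091946 to 10092964) and flp-2 (10094430 to 10095245) sit side by side on the minus strand of X. The library method does not mark strand, and 4 members share exon bases with a coding gene on the opposite strand: flp-11 (17 bases, with tmem-135), flp-16 (14, with romo-1), flp-33 (8, with ntr-1) and flp-19 (5, with abl-1). With no shared exon base, flp-2, flp-3 and flp-28 lie opposite W07E11.1 (mean 10.82) and flp-27 opposite C25H3.11 (mean 11.10). Reads from unspliced RNA of such pairs cannot be told apart. W07E11.1 differed by 0.28 (limma adjusted p = 0.533) in daf-2;htz-1 against daf-2. In the triple mutant against the daf-16 double mutant it differed by 1.20 (limma adjusted p = 0.00459). Levels of different genes can be compared only per length, here as the rlog value minus log2 of the longest transcript in kilobases. On that scale flp-8 (10.07), flp-9 (9.66) and flp-34 (9.48) led in daf-2;htz-1, and flp-9 (8.64), flp-5 (8.16) and flp-15 (8.09) led in wt, where flp-34 ranked 21 of 30 at 4.13.

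All 30 flp genes had their highest mean level in daf-2;htz-1. Among the 14482 tested genes 21.5% did so. The order held for 30 of 30 members with each library centred on its median and with quantile normalization. The mean rlog value of the 30 genes was 5.0, 4.48, 5.19 and 4.68 in triple mutant libraries 1 to 4, 6.04, 5.77, 5.93 and 6.03 in daf-2;htz-1, and 5.02, 5.01, 5.36 and 5.11 in htz-1. It was 4.33, 4.58, 4.61 and 4.52 in the daf-16 double mutant, 4.34, 4.57, 4.35 and 4.73 in daf-2, and 4.19, 4.60, 4.31 and 4.88 in wt. The 4 daf-2;htz-1 libraries stood above the other 20, the htz-1 libraries lay above every library without the htz-1 allele, and the triple mutant libraries overlapped with both sides. For 12 members (flp-1, flp-3, flp-7 to flp-12, flp-14, flp-18, flp-22 and flp-34) all 4 daf-2;htz-1 libraries were above all 20 others, a pattern that 4.88% of tested genes had. The second highest mean was in htz-1 for 17 members, and the lowest was in wt for 10, in daf-2 for 9, in the daf-16 double mutant for 8 and in the triple mutant for 3.

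**Figure D1:**
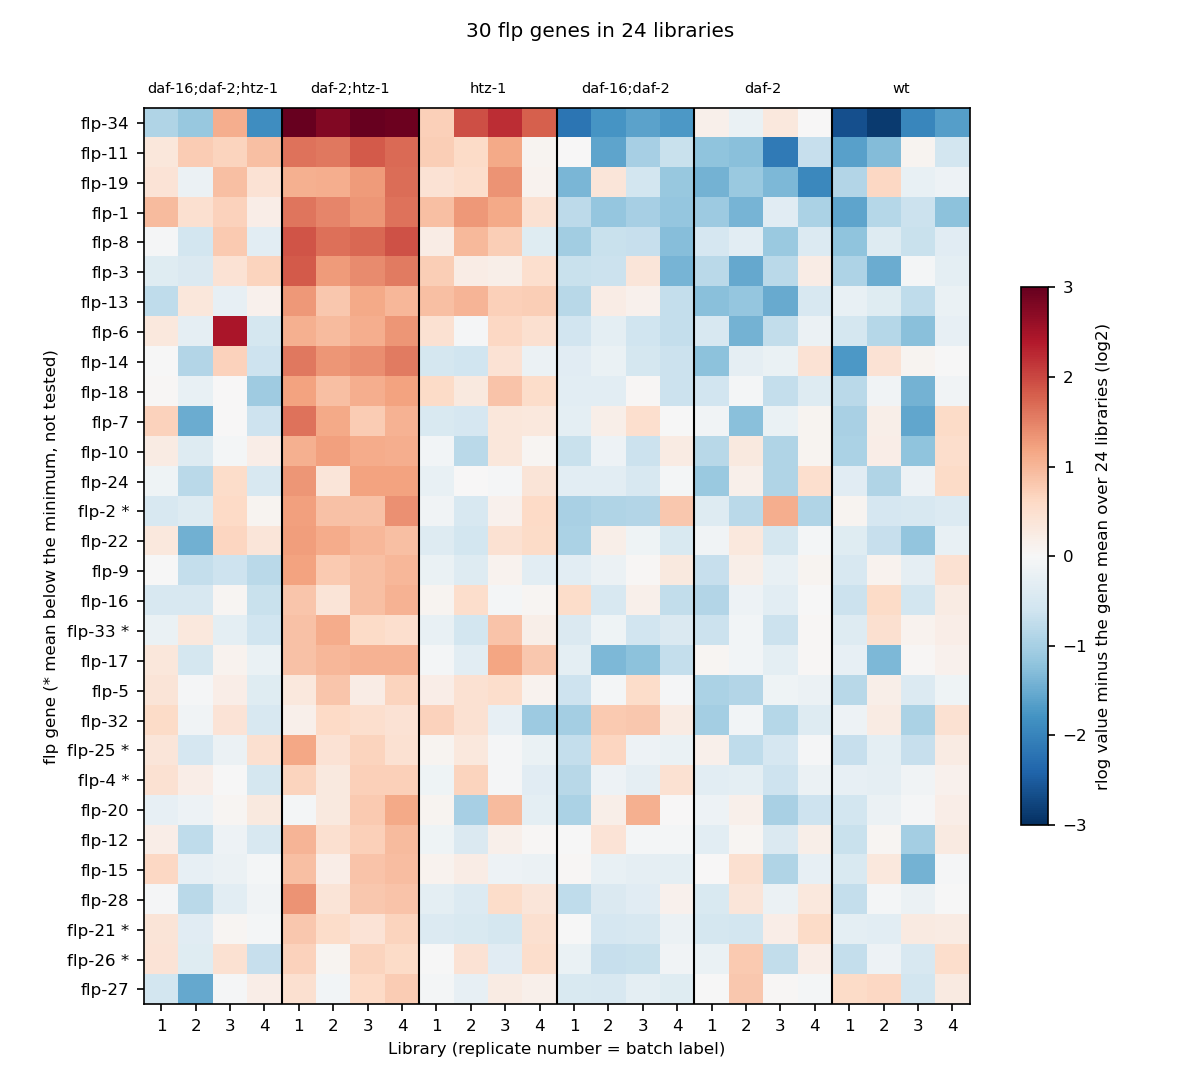
Level of 30 flp genes (one per line of the map, ordered by the daf-2;htz-1 minus daf-2 difference) in 24 libraries, in 6 blocks of 4 by genotype. The colour is the rlog value minus the gene's mean over 24 libraries (log2), red above and blue below the mean. The daf-2;htz-1 block has the highest mean for all 30 genes, and flp-34 shows the widest contrast, between 2.89 in wt library 2 and 9.24 in daf-2;htz-1 library 3.

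The gene with the widest range was flp-34, whose peptide acts through the receptor NPR-11 in olfactory learning (WBGene00019975, chromosome V, 1027891 to 1033404). Its rlog values were 4.87, 4.63, 6.86 and 3.91 in the triple mutant, 8.86, 8.55, 9.24 and 8.71 in daf-2;htz-1 and 6.49, 7.71, 7.98 and 7.55 in htz-1. They were 3.56, 4.01, 4.16 and 4.04 in the daf-16 double mutant, 5.92, 5.57, 6.07 and 5.77 in daf-2 and 3.12, 2.89, 3.80 and 4.12 in wt. The daf-2;htz-1 libraries were the highest 4 of 24, the htz-1 and daf-2 libraries formed separate steps beneath them, and the daf-16 double mutant overlapped with wt. It rose by 3.95 ± 0.43 (SE, adjusted p = 4.14e-08) in htz-1 against wt, which is 15.4-fold on the rlog scale, and by 3.01 ± 0.43 (SE, adjusted p = 6.64e-06) in daf-2;htz-1 against daf-2. It also rose by 2.35 ± 0.43 (SE, adjusted p = 0.000525) in daf-2 against wt. With daf-16 mutated it was lower, with differences of -1.89 ± 0.43 (SE, adjusted p = 0.00259) in the daf-16 double mutant against daf-2 and -3.77 ± 0.43 (SE, adjusted p = 5.35e-07) in the triple mutant against daf-2;htz-1. The triple mutant minus the daf-16 double mutant difference of 1.13 ± 0.43 (SE, adjusted p = 0.0338) was 0.53 and not called without library 3 of the triple mutant, the only one of the 4 above 5, and was 0.33 with array weights.

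**Figure D2:**
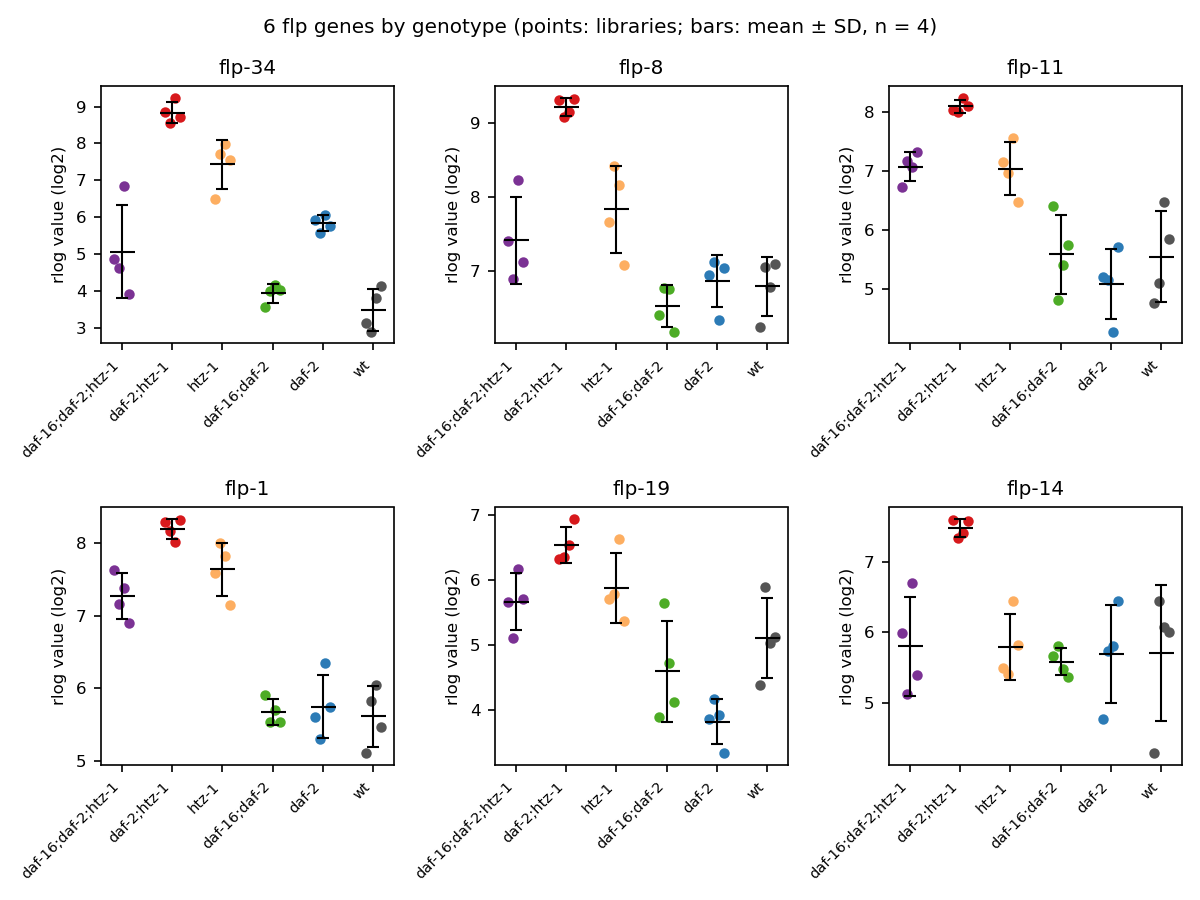
rlog values (log2) of 6 flp genes in the 4 libraries of each genotype (points), with the mean and SD (bars). The daf-2;htz-1 libraries lie above all others for flp-34, flp-8, flp-11, flp-1 and flp-14, while for flp-19 they overlap with htz-1.

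Among peptides of sleep, flp-11 is the main sleep-inducing product of the RIS neuron and flp-13 acts from the ALA neuron in stress-induced sleep, through the receptor DMSR-1. flp-11 (WBGene00001454, chromosome X, 4677334 to 4678129) had values of 6.74, 7.16, 7.06 and 7.32 in the triple mutant, 8.03, 7.99, 8.24 and 8.10 in daf-2;htz-1 and 7.15, 6.97, 7.55 and 6.48 in htz-1. It had 6.42, 4.81, 5.41 and 5.74 in the daf-16 double mutant, 5.20, 5.16, 4.28 and 5.71 in daf-2 and 4.78, 5.10, 6.48 and 5.85 in wt. The daf-2;htz-1 values were above all others, and the triple mutant lay wholly above the daf-16 double mutant, while htz-1 and wt touched. The gene rose with the htz-1 allele in each background, by 1.47 ± 0.35 (SE, adjusted p = 0.00125) against the daf-16 double mutant, by 3.00 ± 0.35 (SE, adjusted p = 4.77e-07) against daf-2 and by 1.49 ± 0.35 (SE, adjusted p = 0.0011) against wt. For flp-13 (WBGene00001456, chromosome IV, 7696932 to 7698420) the values were 2.57, 3.67, 3.09 and 3.47 in the triple mutant, 4.63, 4.15, 4.46 and 4.33 in daf-2;htz-1 and 4.22, 4.36, 4.05 and 4.07 in htz-1. They were 2.50, 3.54, 3.46 and 2.61 in the daf-16 double mutant, 2.08, 2.18, 1.82 and 2.84 in daf-2 and 3.11, 2.96, 2.57 and 3.14 in wt. Both daf-2;htz-1 and htz-1 stood above the other 4 genotypes, and the triple mutant overlapped with the daf-16 double mutant. flp-13 rose by 2.16 ± 0.30 (SE, adjusted p = 3.88e-06) in daf-2;htz-1 against daf-2 and by 1.23 ± 0.30 (SE, adjusted p = 0.00124) in htz-1 against wt, and its triple mutant minus the daf-16 double mutant difference was 0.17 ± 0.30 (SE, adjusted p = 0.666). flp-24, a second ALA sleep peptide, rose by 1.37 ± 0.37 (SE, adjusted p = 0.00424) in daf-2;htz-1 against daf-2.

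Peptides of locomotion and mating were likewise highest in daf-2;htz-1. flp-1 (WBGene00001444, chromosome IV, 9144705 to 9146128), a product of the AVK interneurons that shapes movement, had values of 7.63, 7.16, 7.38 and 6.90 in the triple mutant, 8.29, 8.16, 8.02 and 8.31 in daf-2;htz-1 and 7.60, 8.0, 7.82 and 7.14 in htz-1. It had 5.91, 5.54, 5.70 and 5.53 in the daf-16 double mutant, 5.60, 5.30, 6.35 and 5.75 in daf-2 and 5.11, 5.83, 6.05 and 5.47 in wt. All 12 libraries with the htz-1 allele were above all 12 without it. The gene rose by 1.60 ± 0.25 (SE, adjusted p = 7.14e-06) in the triple mutant against the daf-16 double mutant, by 2.45 ± 0.25 (SE, adjusted p = 5.4e-08) in daf-2;htz-1 against daf-2 and by 2.03 ± 0.25 (SE, adjusted p = 2.42e-07) in htz-1 against wt. Its gene body lies opposite daf-10 with no shared exon base, and daf-10 was called higher in the same comparisons, by 1.28, 1.30 and 3.07, so without strand, reads from unspliced RNA of the 2 genes cannot be told apart.

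flp-8, flp-10 and flp-12 act in male turning during mating, and flp-10 also inhibits egg laying through the receptor EGL-6. flp-8 (WBGene00001451, chromosome X, 14881419 to 14882267) had values of 7.41, 6.89, 8.23 and 7.11 in the triple mutant, 9.32, 9.08, 9.16 and 9.34 in daf-2;htz-1 and 7.65, 8.42, 8.17 and 7.08 in htz-1. Those of the genotypes without the allele were 6.40, 6.77, 6.75 and 6.17 in the daf-16 double mutant, 6.94, 7.12, 6.33 and 7.03 in daf-2 and 6.23, 7.05, 6.77 and 7.09 in wt. Only the daf-2;htz-1 libraries exceeded 9, and htz-1 overlapped with wt by a narrow margin. flp-8 was higher by 2.37 ± 0.29 (SE, adjusted p = 7.11e-07) in daf-2;htz-1 against daf-2, by 1.40 ± 0.29 (SE, adjusted p = 0.00113) against htz-1, and lower, with a difference of -1.81 ± 0.29 (SE, adjusted p = 4.01e-05), in the triple mutant against daf-2;htz-1.

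The values of flp-10 (WBGene00001453, chromosome IV, 7868907 to 7870081) were 5.30, 4.66, 4.98 and 5.25 in the triple mutant, 6.10, 6.27, 6.15 and 6.14 in daf-2;htz-1, 4.97, 4.24, 5.39 and 5.10 in htz-1, 4.37, 4.89, 4.40 and 5.30 in the daf-16 double mutant, 4.21, 5.33, 4.14 and 5.12 in daf-2 and 4.08, 5.24, 3.83 and 5.56 in wt. Those of flp-12 (WBGene00001455, chromosome X, 4591281 to 4592350) were 7.57, 6.60, 7.22 and 6.89 in the triple mutant, 8.39, 7.84, 8.07 and 8.31 in daf-2;htz-1, 7.23, 6.92, 7.51 and 7.39 in htz-1, 7.36, 7.76, 7.30 and 7.31 in the daf-16 double mutant, 7.06, 7.43, 6.94 and 7.53 in daf-2 and 6.70, 7.42, 6.33 and 7.64 in wt. In both genes the 4 daf-2;htz-1 libraries were above all others and the other 5 genotypes overlapped. flp-10 was higher in daf-2;htz-1 by 1.47 ± 0.36 (SE, adjusted p = 0.00233) against daf-2 and by 1.24 ± 0.36 (SE, adjusted p = 0.0169) against htz-1. flp-12 was higher by 0.92 ± 0.26 (SE, adjusted p = 0.00625) and by 0.89 ± 0.26 (SE, adjusted p = 0.0157) in the same comparisons.

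For flp-3 (WBGene00001446), whose peptides act on the receptor NPR-10 in male responses to pheromone, the values were 3.65, 3.59, 4.46 and 4.70 in the triple mutant, 5.87, 5.30, 5.45 and 5.58 in daf-2;htz-1 and 4.77, 4.24, 4.21 and 4.53 in htz-1. They were 3.36, 3.38, 4.40 and 2.63 in the daf-16 double mutant, 3.21, 2.49, 3.20 and 4.24 in daf-2 and 3.09, 2.53, 3.96 and 3.73 in wt. The daf-2;htz-1 libraries were above 5 and all others were below it, and htz-1 was wholly above wt. flp-3 rose by 2.26 ± 0.39 (SE, adjusted p = 6.2e-05) in daf-2;htz-1 against daf-2 and by 1.11 ± 0.39 (SE, adjusted p = 0.0202) in htz-1 against wt. Its neighbours on X had daf-2;htz-1 minus daf-2 differences of 0.84 (flp-28, called) and 1.34 (flp-2, not tested).

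Feeding and fat are the known fields of flp-18, whose peptides act on NPR-1, NPR-4 and NPR-5, and flp-7, which acts on NPR-22 in gut fat loss. flp-18 (WBGene00001461, chromosome X, 3012182 to 3018555) stood at 5.80, 5.56, 5.79 and 4.71 in the triple mutant, 6.97, 6.66, 6.85 and 6.98 in daf-2;htz-1 and 6.34, 6.07, 6.62 and 6.31 in htz-1. It stood at 5.46, 5.46, 5.81 and 5.13 in the daf-16 double mutant, 5.20, 5.71, 5.06 and 5.39 in daf-2 and 4.96, 5.66, 4.36 and 5.66 in wt. The genotypes formed 3 levels without overlap, daf-2;htz-1 at the top, htz-1 next and the other 4 mixed beneath. It rose by 1.53 ± 0.29 (SE, adjusted p = 0.000166) in daf-2;htz-1 against daf-2 and by 1.17 ± 0.29 (SE, adjusted p = 0.00143) in htz-1 against wt, while its triple mutant minus the daf-16 double mutant difference was -0.0022 ± 0.29 (SE, adjusted p = 0.996). flp-7 (WBGene00001450, chromosome X, 5885865 to 5886833) stood at 5.74, 3.56, 5.06 and 4.43 in the triple mutant, 6.67, 6.17, 5.79 and 6.08 in daf-2;htz-1, 4.58, 4.54, 5.39 and 5.36 in htz-1, 4.75, 5.23, 5.55 and 5.03 in the daf-16 double mutant, 4.93, 3.78, 4.85 and 5.12 in daf-2 and 4.08, 5.21, 3.48 and 5.62 in wt. The daf-2;htz-1 libraries were the highest by a narrow margin. flp-7 rose by 1.51 ± 0.44 (SE, adjusted p = 0.00872) in daf-2;htz-1 against daf-2, a call that ended without batch 2 (1.21).

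Among members with less settled roles, flp-19 (WBGene00001462, chromosome X, 10604686 to 10605831) stood at 5.68, 5.11, 6.18 and 5.72 in the triple mutant, 6.33, 6.37, 6.54 and 6.94 in daf-2;htz-1 and 5.72, 5.80, 6.63 and 5.38 in htz-1. It stood at 3.91, 5.65, 4.74 and 4.13 in the daf-16 double mutant, 3.86, 4.17, 3.94 and 3.34 in daf-2 and 4.39, 5.90, 5.04 and 5.13 in wt. The daf-2 libraries were below all wt libraries and below all daf-2;htz-1 libraries. flp-19 rose by 2.72 ± 0.37 (SE, adjusted p = 2.9e-06) in daf-2;htz-1 against daf-2, and in htz-1 against wt it differed by 0.77 ± 0.37 (SE, adjusted p = 0.084).

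For flp-14 (WBGene00001457, chromosome III, 12910510 to 12914783) the libraries gave 5.99, 5.13, 6.70 and 5.39 in the triple mutant, 7.59, 7.34, 7.41 and 7.58 in daf-2;htz-1, 5.49, 5.42, 6.44 and 5.82 in htz-1, 5.67, 5.81, 5.49 and 5.38 in the daf-16 double mutant, 4.77, 5.74, 5.81 and 6.45 in daf-2 and 4.29, 6.45, 6.08 and 6.01 in wt. For flp-9 (WBGene00001452, chromosome IV, 12754558 to 12757570) they gave 8.02, 7.31, 7.40 and 7.22 in the triple mutant, 9.24, 8.81, 8.94 and 9.01 in daf-2;htz-1, 7.83, 7.64, 8.14 and 7.70 in htz-1, 7.72, 7.85, 8.06 and 8.33 in the daf-16 double mutant, 7.33, 8.21, 7.80 and 8.11 in daf-2 and 7.54, 8.13, 7.76 and 8.49 in wt. Both genes were set apart in daf-2;htz-1 alone, above all 20 other libraries, and the other genotypes overlapped, htz-1 with wt included. flp-14 was higher in daf-2;htz-1 by 1.78 ± 0.40 (SE, adjusted p = 0.000939) against daf-2 and by 1.68 ± 0.40 (SE, adjusted p = 0.00381) against htz-1. flp-9 was higher by 1.13 ± 0.22 (SE, adjusted p = 0.000283) and by 1.17 ± 0.22 (SE, adjusted p = 0.000575). flp-16 (WBGene00001459, chromosome II, 13235306 to 13237417) gave 3.96, 3.95, 4.50 and 3.78 in the triple mutant, 5.27, 4.82, 5.34 and 5.49 in daf-2;htz-1, 4.53, 4.98, 4.38 and 4.50 in htz-1, 4.99, 3.96, 4.59 and 3.71 in the daf-16 double mutant, 3.57, 4.29, 4.12 and 4.43 in daf-2 and 3.79, 5.03, 3.88 and 4.68 in wt, so that daf-2;htz-1 was above daf-2 but overlapped with wt.

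Most flp genes were higher with the htz-1 allele in the daf-2 background. Of the 24 tested flp genes 21 rose in daf-2;htz-1 against daf-2 and 0 fell by limma (23 and 0 at an unadjusted p below 0.05), where 20.4% of all tested genes rose and 20.1% fell. Over all 30 the difference was positive in 30, with a median of 1.15 against 0.04 over all tested genes, and without the filter on low values 25 of 30 were called higher. In 23 of 30 members all 4 daf-2;htz-1 libraries were above all 4 daf-2 libraries, as in 20.9% of tested genes. Besides the genes above, the called members were flp-6 (1.81), a product of the AFD thermosensory neurons, flp-22 (1.16), flp-17 (1.06), a BAG neuron peptide that inhibits egg laying through EGL-6, flp-5 (1.04), flp-15 (0.88) and flp-28 (0.84). The tested members not called were flp-32 (1.02, adjusted p = 0.0538), flp-20 (0.94, adjusted p = 0.0635) and flp-27 (0.25, adjusted p = 0.561). The untested flp-2, flp-4, flp-21, flp-25, flp-26 and flp-33 differed by 1.34, 0.95, 0.69, 0.96, 0.49 and 1.11 in that order. The calls of 13 members held under every alternative in which the gene was tested. Among these, flp-3 (mean 4.02), flp-13 (3.33) and flp-16 (4.44) were not tested at a minimum mean of 5. The calls of flp-5, flp-7, flp-12, flp-15, flp-17, flp-22, flp-24 and flp-28 ended when some library or batch was left out, at differences of 0.52 to 1.23. Without the 4 members that share exon bases, 18 of 21 were called.

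In the wild-type background the same allele went with higher levels of 9 flp genes, led by flp-34 and flp-1. In htz-1 against wt 9 of 24 rose and 0 fell by limma (11 and 0 unadjusted), where 26.4% of all tested genes rose and 24.5% fell. The difference was positive in 26 of 30, with a median of 0.37 against 0.03 over all tested genes, and 6 of 30 members had no overlap between the groups, all above, against 23.1% of tested genes. The called genes were flp-34, flp-1, flp-11, flp-13, flp-18, flp-3, flp-8 (1.04 ± 0.29 SE, adjusted p = 0.00392), flp-6 (1.10 ± 0.42 SE, adjusted p = 0.0307) and flp-5 (0.62 ± 0.26 SE, adjusted p = 0.049). The call of flp-5 ended in 14 of the alternatives, among them array weights and a minimum mean of 5, and those of flp-3 and flp-6 ended without wt library 2 or htz-1 library 1, among other omissions, at differences of 0.44 to 1.19 over the 3 genes. The lowest differences were those of flp-27 and flp-21, at -0.21 and -0.21.

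With both daf-2 and daf-16 mutated, the share of flp genes called higher with the htz-1 allele was near that of all genes. In the triple mutant against the daf-16 double mutant flp-1, flp-11, flp-34, flp-19 (1.07 ± 0.37 SE, adjusted p = 0.0186), flp-6 (1.04 ± 0.42 SE, adjusted p = 0.0433) and flp-8 (0.89 ± 0.29 SE, adjusted p = 0.013) rose and 0 fell by limma (7 and 1 unadjusted), 6 of 24 where 24.1% of tested genes rose and 24.3% fell. The difference was positive in 22 of 30, with a median of 0.22 against 0.03 over all tested genes, and in 3 of 30 members (flp-1, flp-8 and flp-11) the groups did not overlap, against 18.9% of tested genes above. With each library centred on its median the flp median was 0.44 and that of all tested genes 0.26, and 7 of 24 flp genes and 4500 of 14482 genes rose. flp-6 reached 8.93 in triple mutant library 3, with 5.95 to 6.79 in the other 3 and 5.76 to 6.18 in the daf-16 double mutant. Without that library or without batch 3 the count was 2 (flp-1 and flp-11), and without that library flp-6 differed by 0.38. Without batch 1 or without daf-16 double mutant library 4 the count was 3.

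**Figure D3:**
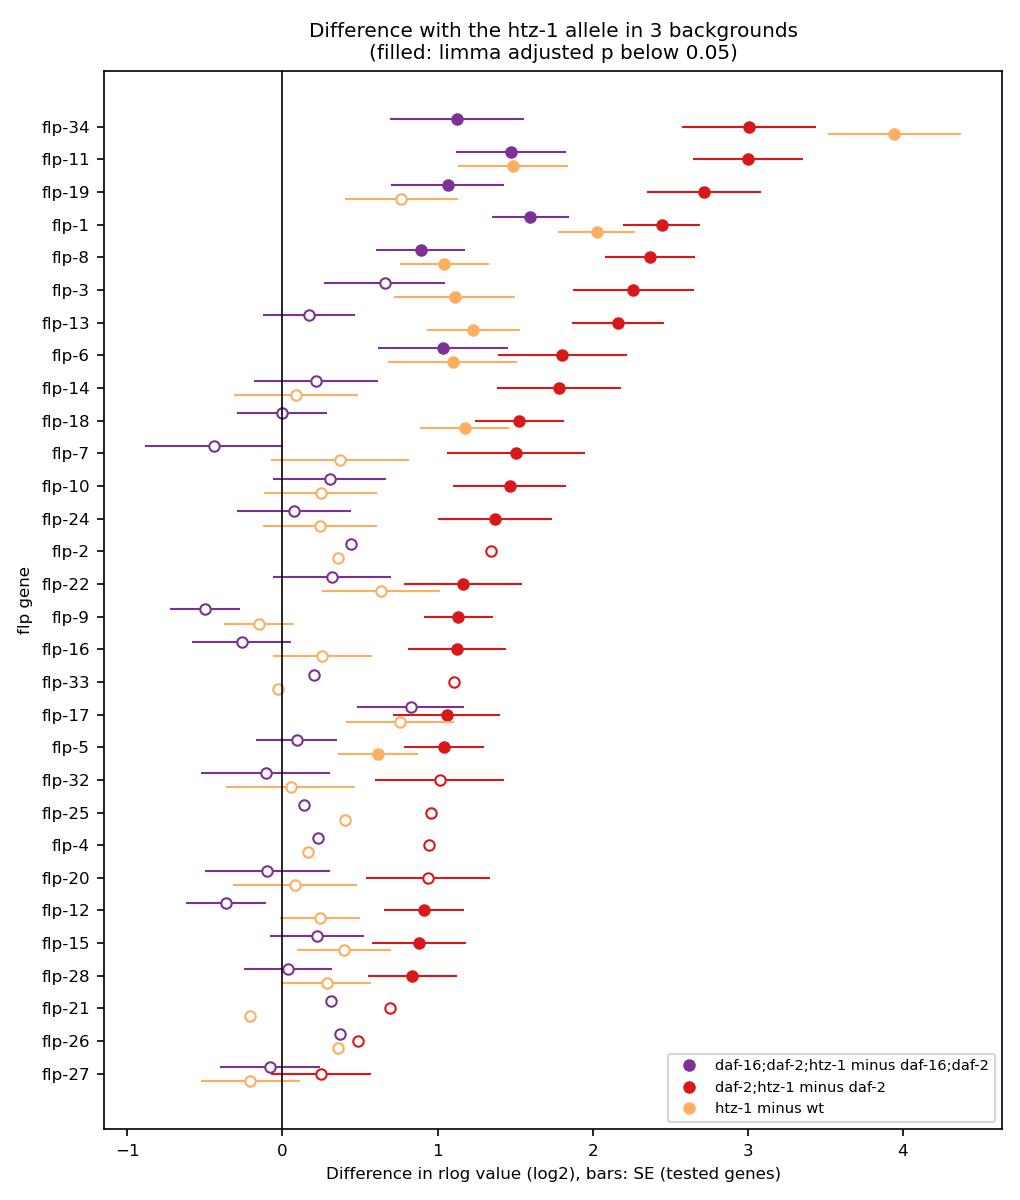
Difference in rlog value (log2) between genotypes with and without the htz-1 allele for 30 flp genes, in the daf-16;daf-2, daf-2 and wt backgrounds, with the SE as bars for the 24 tested genes. Filled points are called (limma adjusted p below 0.05). The daf-2 background gives the largest of the 3 differences for 29 genes, and flp-34 is the exception, with 3.95 in wt.

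The difference between backgrounds was tested directly. The htz-1 effect in daf-2 minus the effect in wt was positive in 29 of 30 members, the exception being flp-34 (-0.94, adjusted p = 0.340), with a median of 0.87 against 0.04 over all tested genes. It was called higher for 5 of 24, flp-19 (1.95 ± 0.52 SE, adjusted p = 0.0138), flp-14 (1.70 ± 0.57 SE, adjusted p = 0.0475), flp-11 (1.51 ± 0.50 SE, adjusted p = 0.0462), flp-8 (1.33 ± 0.41 SE, adjusted p = 0.0323) and flp-9 (1.28 ± 0.32 SE, adjusted p = 0.00864), and lower for 0 (9 and 0 unadjusted), where 7.78% of tested genes were higher and 5.57% lower. The count was 0 without batch 4 and between 2 and 5 without any other single batch or library, and the calls of flp-9 and flp-19, which ended only without batch 4, then stood at 1.15 and 1.49. The flp-11 call ended with the replicate block (adjusted p = 0.0523) and in 20 of 30 alternatives, that of flp-14 in 19 of 30 and that of flp-8 in 10 of 30, at 0.99 to 1.85 over the 3 genes.

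The htz-1 effect in daf-16;daf-2 minus the effect in daf-2 was negative in all 30 members, with a median of -1.08 against -0.11 over all tested genes. It was called lower for 12 of 24 and higher for 0 (16 and 0 unadjusted), where 16.5% of tested genes were lower and 10% higher. They were flp-13 (-1.99 ± 0.42 SE, adjusted p = 0.00135), flp-7 (-1.95 ± 0.63 SE, adjusted p = 0.0241), flp-34 (-1.88 ± 0.61 SE, adjusted p = 0.0247), flp-19 (-1.65), flp-9 (-1.63 ± 0.32 SE, adjusted p = 0.000684), flp-3 (-1.60), flp-14 (-1.57), flp-18 (-1.53 ± 0.41 SE, adjusted p = 0.00752), flp-11 (-1.53), flp-8 (-1.48 ± 0.41 SE, adjusted p = 0.00952), flp-16 (-1.39) and flp-12 (-1.28). The calls of flp-9, flp-13 and flp-18 held in every alternative. With each library centred on its median the all-gene median was 0.24, the flp median -0.73, 8 members were called lower and 2 of 24 tested members turned positive, and without batch 2 or batch 4 the count was 6.

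Among animals that all carry the htz-1 allele, the daf-2 mutation went with more flp RNA. In daf-2;htz-1 against htz-1 9 of 24 members rose and 0 fell by limma (14 and 0 unadjusted), where 11.5% of tested genes rose and 8.04% fell. The difference was positive in 30 of 30, with a median of 0.72 against 0.03 over all tested genes, and 15 of 30 members were wholly above, as 18.3% of tested genes were. The called genes were flp-14, flp-34 (1.41 ± 0.43 SE, adjusted p = 0.022), flp-8, flp-10, flp-9, flp-3 (1.11 ± 0.39 SE, adjusted p = 0.0465), flp-11 (1.05 ± 0.35 SE, adjusted p = 0.0381), flp-12 and flp-28 (0.80 ± 0.28 SE, adjusted p = 0.0483). Those of flp-8, flp-9 and flp-14 held in every alternative, and the count was 16 with array weights or with these 8 libraries alone, 3 without batch 2 or batch 4, 4 without batch 1 or htz-1 library 2, and 5 without htz-1 library 1 or daf-2;htz-1 library 1 or 3.

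With daf-16 mutated as well, most flp genes were lower. In the triple mutant against daf-2;htz-1 18 of 24 fell and 0 rose by limma (20 and 0 unadjusted), where 17.4% of tested genes fell and 12.8% rose. The difference was negative in all 30, with a median of -1.07 against -0.06 over all tested genes, and 20 of 30 members were wholly below, as 17.4% of tested genes were. After flp-34 and flp-8 the largest falls were those of flp-14 (-1.68 ± 0.40 SE, adjusted p = 0.00256), flp-9 (-1.51 ± 0.22 SE, adjusted p = 1.81e-05), flp-7 (-1.48 ± 0.44 SE, adjusted p = 0.0137), flp-3 (-1.45 ± 0.39 SE, adjusted p = 0.00657) and flp-18 (-1.41 ± 0.29 SE, adjusted p = 0.000628). The other 11 called members, flp-1, flp-10, flp-11, flp-12, flp-13, flp-16, flp-17, flp-22, flp-24, flp-27 and flp-28, fell by between 0.92 and 1.25. The calls of flp-8, flp-9, flp-18, flp-28 and flp-34 held in every alternative. With centred libraries the flp median was -0.89, that of all tested genes 0.13, and 14 members fell. The count was 11 without triple mutant library 2, 9 without batch 4, and 7 without triple mutant libraries 2 and 4 together, an alternative chosen after seeing that these have the lowest flp means of their genotype. flp-22, at 3.57 in that library 2 and 5.32 to 5.64 in the other 3, differed by -0.62 without it.

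Among genotypes without the htz-1 allele, flp-34 and flp-19 were called in daf-2 against wt, and flp-13 and flp-34 in the daf-16 double mutant against daf-2. In daf-2 against wt 1 of 24 rose (flp-34) and 1 fell (flp-19, -1.29 ± 0.37 SE, adjusted p = 0.0204), shares near the 6.43% of tested genes that rose and the 5.95% that fell. The median difference of the 30 was 0.0004, against -0.03 over all tested genes, with 15 positive, and in 1 member each the groups were wholly above and wholly below, where 6.96% and 5.72% of tested genes were. The flp-19 call ended without wt library 2, daf-2 library 4, batch 2, 3 or 4, or in a fit of these 8 libraries alone, at -1.35 to -1.03. In the daf-16 double mutant against daf-2 1 of 24 rose (flp-13, 0.80 ± 0.30 SE, adjusted p = 0.0495) and 1 fell (flp-34), where 16% of tested genes rose and 9.65% fell. The median was 0.09 against 0.03 over all tested genes, with 17 of 30 positive, and it turned to -0.08 with centred libraries, where the median of all tested genes was -0.13 and 0 members rose and 2 fell, and to -0.03 with quantile normalization. Here 3 of 30 members (flp-17, flp-27 and flp-34) were wholly below, as 9.74% of tested genes were. The flp-13 call ended in 15 alternatives, the replicate block among them (adjusted p = 0.0556), at 0.52 to 0.93, and without daf-16 double mutant library 1 the count was 4.

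**Figure D4:**
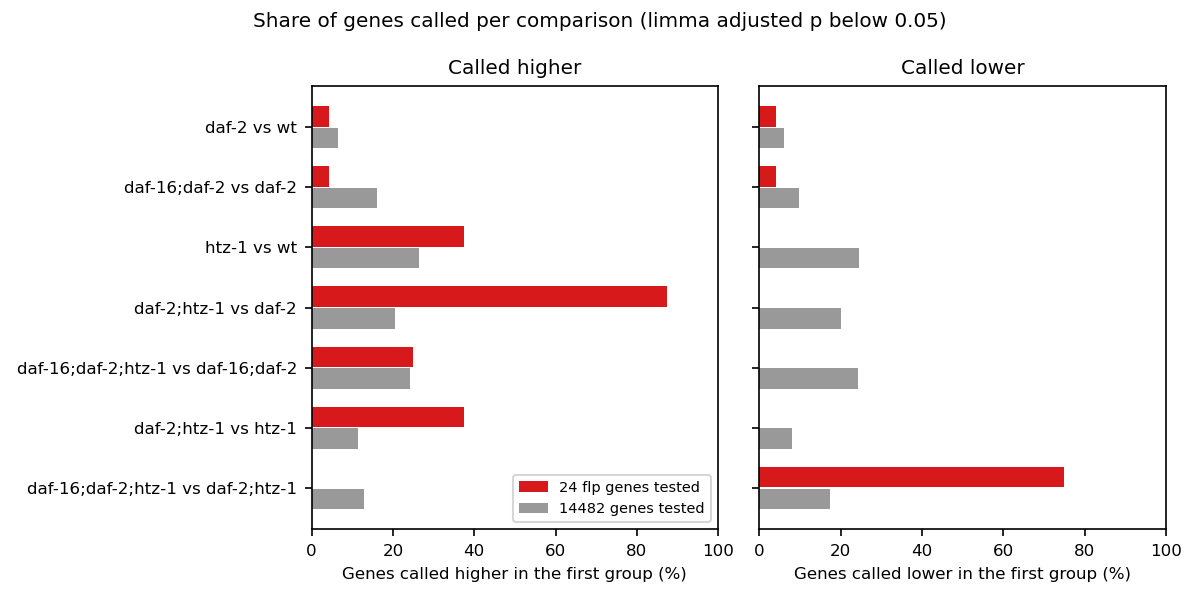
Percent of the 24 tested flp genes (red) and of all 14482 tested genes (grey) called higher (left) or lower (right) in the first genotype of 7 comparisons. The bars part most in daf-2;htz-1 against daf-2 (87.5% and 20.4% higher) and in the triple mutant against daf-2;htz-1 (75.0% and 17.4% lower).

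Every comparison in which more than 9 members were called contains the same 4 daf-2;htz-1 libraries, so these counts are not independent of each other. The other genes of peptide signalling were counted from lists of 9 processing enzymes, 18 FLP receptors and 11 dense core vesicle genes. In daf-2;htz-1 against daf-2, 6 of 9 processing genes rose and 1 fell, where 20.4% and 20.1% of all tested genes did. The proprotein convertase gene egl-3 (1.47, adjusted p = 4.41e-05), the chaperone gene sbt-1 (1.42, adjusted p = 1.08e-05) and the amidation enzyme genes pgal-1 (1.02), pghm-1 (0.93) and pamn-1 (0.35) rose with the carboxypeptidase gene egl-21 (0.80), and bli-4 (-1.20), a convertase of cuticle collagens, fell. Of these, egl-3, egl-21, pgal-1 and pghm-1 are named after their values were seen. In htz-1 against wt 2 of 9 processing genes rose (sbt-1, 1.00, and pamn-1, 0.79) and 2 fell (bli-4, -0.78, and aex-5, -0.51), shares near the 26.4% and 24.5% of all tested genes. There egl-3 differed by -0.23 (adjusted p = 0.453). The htz-1 effect on egl-3 was larger in daf-2 than in wt by 1.70 ± 0.35 (SE, adjusted p = 0.0021). In daf-2;htz-1 against htz-1 egl-3 (1.27), pgal-1 (0.81), egl-21 (0.74) and pghm-1 (0.73) rose and pamn-1 (-0.59) fell. Of all tested genes 11.5% rose and 8.04% fell there. In the triple mutant against the daf-16 double mutant aex-5 (-0.52) and bli-4 (-0.42) fell and 0 rose, where 24.3% of all tested genes fell and 24.1% rose. In the triple mutant against daf-2;htz-1 sbt-1 (-1.04), pgal-1 (-0.91) and egl-3 (-0.83) fell and bli-4 (0.58) rose, where 17.4% and 12.8% of all tested genes did.

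Of 14 tested FLP receptor genes 1 rose and 0 fell in daf-2;htz-1 against daf-2 (dmsr-3, 1.08 ± 0.33 SE, adjusted p = 0.0111), where 20.4% and 20.1% of all tested genes did. In daf-2;htz-1 against htz-1 0 rose and 0 fell by limma, where 11.5% and 8.04% of all tested genes did. At an unadjusted p below 0.05, 2 were higher and 2 lower there. In htz-1 against wt 1 rose and 1 fell (dmsr-3, 1.13, and npr-2, -0.88), where 26.4% and 24.5% of all tested genes did. In the triple mutant against the daf-16 double mutant 3 rose and 0 fell (egl-6, 0.68, dmsr-3, 1.76, and npr-11), where 24.1% and 24.3% did. In the triple mutant against daf-2;htz-1 1 rose and 1 fell (npr-11 and frpr-18, -1.11), where 12.8% and 17.4% did. Without the htz-1 allele 2 rose and 2 fell in the daf-16 double mutant against daf-2 (dmsr-1, 1.32, and npr-5, 0.91, and egl-6, -0.95, and npr-11, -1.08), where 16% and 9.65% of all tested genes did. In daf-2 against wt 0 rose and 1 fell (npr-5, -1.04), where 6.43% and 5.95% did. The receptor genes other than dmsr-3 and npr-2 are named after their values were seen. The receptor gene of the FLP-34 peptide, npr-11, was higher by 1.47 ± 0.38 (SE, adjusted p = 0.00476) in the triple mutant against daf-2;htz-1, where flp-34 fell, and by 1.81 ± 0.38 (SE, adjusted p = 0.00031) against the daf-16 double mutant. Of 11 dense core vesicle genes 6 rose and 0 fell in daf-2;htz-1 against daf-2, where 20.4% of all tested genes rose. In htz-1 against wt 3 rose and 0 fell, a share near the 26.4% of all tested genes that rose, and in the triple mutant against the daf-16 double mutant 3 rose and 1 fell, where 24.1% and 24.3% of all tested genes did. The largest of these differences was that of unc-31, the CAPS gene needed for vesicle release, at 2.78, 3.08 and 3.49 in these comparisons, and in daf-2;htz-1 against htz-1 it differed by -0.30 (adjusted p = 0.339).

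Of 17 tested pan-neuronal genes 8 rose and 1 fell in daf-2;htz-1 against daf-2 (median 0.60), where 20.4% and 20.1% of all tested genes did. In htz-1 against wt 5 rose and 1 fell (median 0.30), where 26.4% and 24.5% of all tested genes did, and in the triple mutant against the daf-16 double mutant 5 rose and 1 fell (median 0.09), where 24.1% and 24.3% did. In daf-2;htz-1 against htz-1 0 rose and 1 fell (median 0.02), where 11.5% and 8.04% did. The syntaxin gene unc-64 (1.66 and 1.49) and unc-119 (1.26 and 0.95) rose in daf-2;htz-1 against daf-2 and in htz-1 against wt. The gene that fell was maco-1 in daf-2;htz-1 against daf-2 (-1.31) and against htz-1 (-0.70). It was tbb-1 in htz-1 against wt (-0.60) and sng-1 in the triple mutant against the daf-16 double mutant (-1.18). Of these, maco-1 and sng-1 are named after their values were seen. The mean of the 18 genes of this list per library was 7.16 to 7.45 in the triple mutant, 7.27 to 7.38 in daf-2;htz-1, 7.30 to 7.50 in htz-1, 7.04 to 7.18 in the daf-16 double mutant, 6.87 to 7.06 in daf-2 and 6.92 to 7.18 in wt. It thus parted daf-2;htz-1 from daf-2 but not from htz-1, where the flp mean did. Of 11 tested genes of transmitter identity 0 rose and 0 fell in daf-2;htz-1 against daf-2 by limma, and 0 had an unadjusted p below 0.05. In htz-1 against wt 1 rose (cat-2, 1.14) and 1 fell (tbh-1, -0.85), and in daf-2;htz-1 against htz-1 1 rose (tbh-1, 1.68) and 1 fell (bas-1, -0.67, named after its value was seen). A further comparison, of the triple mutant against the daf-16 double mutant, had 2 that rose and 3 that fell. In the triple mutant against daf-2;htz-1 2 rose and 1 fell, where 12.8% and 17.4% of all tested genes did.

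Markers of other cells and stages were called in the same comparisons. Of 8 genes of hatching and the first larval stage 4 rose and 2 fell in htz-1 against wt, among them hch-1 (8.68) and dpy-14 (8.50), where 26.4% and 24.5% of all tested genes did. The list averaged 8.95 to 9.97 per library in the triple mutant, 6.42 to 7.44 in daf-2;htz-1, 9.34 to 9.77 in htz-1 and 6.30 to 6.92 in the 12 libraries without the allele. It was thus high in htz-1 and the triple mutant. In daf-2;htz-1 only library 4 (6.42) overlapped with the libraries without the allele, and libraries 1 to 3 (7.14, 7.39 and 7.44) were above all of those. Against daf-2 the genes of this list were split in daf-2;htz-1. There dpy-14 (2.61) and dpy-17 (0.85) were called higher and sqt-3 (-1.73) and nhr-23 (-0.94) were called lower. Of all tested genes 20.4% and 20.1% were called in these directions. The gene sqt-3 is named after its value was seen. Of 7 sperm genes 7 fell in each of the 3 comparisons of genotypes with and without the allele, where 20.1% to 24.5% of all tested genes fell. The sperm list averaged 6.71 to 8.69 in the 12 libraries with the allele and 9.10 to 11.65 in the 12 without it. Of 5 pharyngeal muscle genes 4 rose in daf-2;htz-1 against daf-2 (myo-1 by 3.24), where 20.4% of all tested genes did. The gene myo-1, named after its values were seen, was lower in daf-2 against wt (-2.95, adjusted p = 0.00223). The list averaged 5.70 to 7.56 in the triple mutant, 6.84 to 7.01 in daf-2;htz-1, 6.31 to 6.97 in htz-1, 5.97 to 6.50 in the daf-16 double mutant, 5.04 to 5.31 in daf-2 and 6.14 to 6.98 in wt. It was thus lowest in daf-2, and the other genotypes overlapped with wt. The hypodermis list averaged 5.34 to 6.01 in daf-2;htz-1 and 6.05 to 8.43 in the other genotypes. In daf-2;htz-1 against htz-1 dpy-7 (-4.85) and wrt-10 (-4.67) were called lower, where 8.04% of all tested genes were. There bli-1 (0.22), col-10 (0.33), col-19 (0.41) and rol-6 (-0.21) were not called. Against daf-2, bli-1 (-1.58), col-10 (-2.71) and col-19 (-1.76) were called lower, where 20.1% were. There dpy-7 (-0.52), rol-6 (-1.88) and wrt-10 (0.82) were not called. The gene bli-1 is named after its values were seen. The germline and oocyte list averaged 12.59 to 13.04 in daf-2;htz-1 and overlapped between all genotypes. In the triple mutant, htz-1, daf-2 and wt the 2 libraries with the highest germline list were the 2 with the lowest flp mean. In the daf-16 double mutant and daf-2;htz-1 they were not. The part of these cells and stages in the flp values was not tested.

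**Figure D5:**
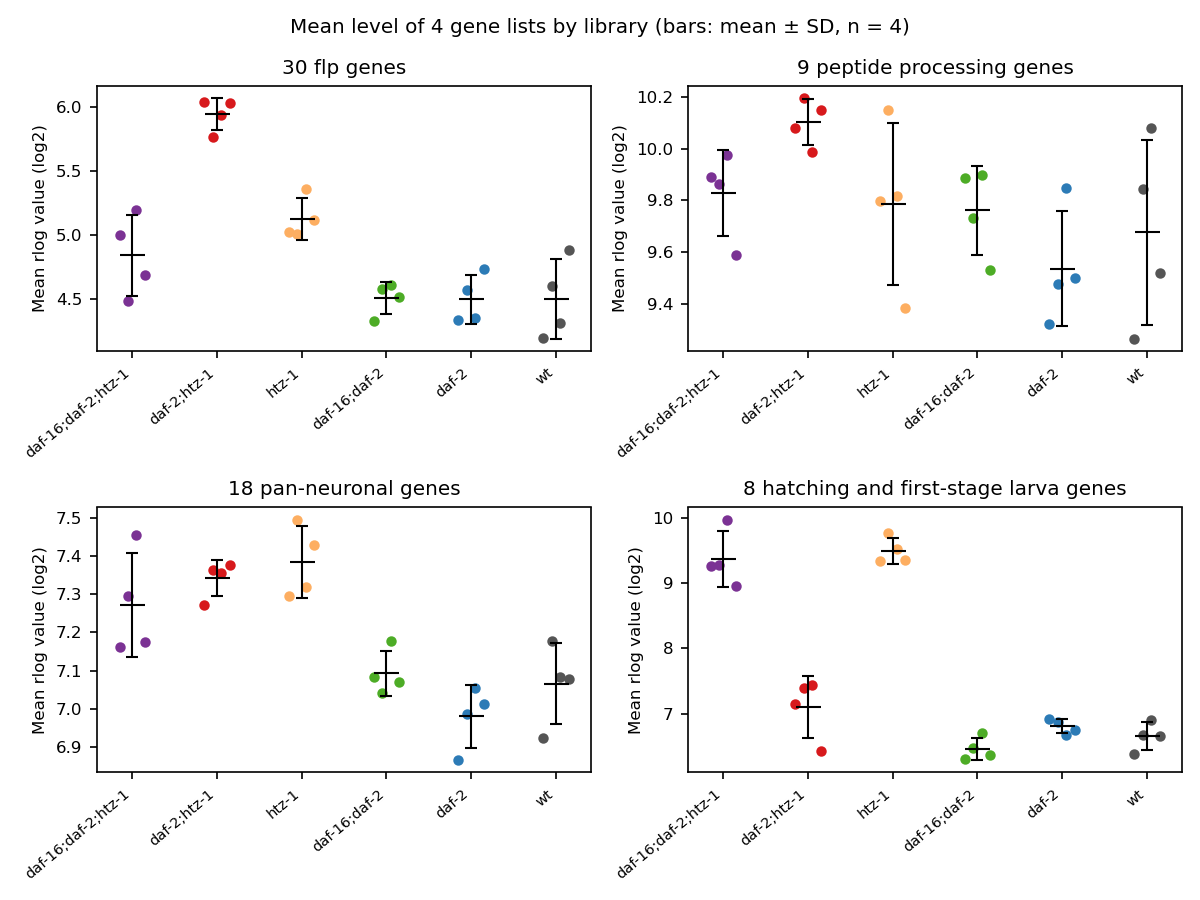
Mean rlog value (log2) per library of 30 flp genes, 9 peptide processing genes, 18 pan-neuronal genes and 8 hatching and first-stage larva genes in 6 genotypes (points: 4 libraries; bars: mean and SD). The flp mean is highest in daf-2;htz-1 (5.94 ± 0.13), and the hatching genes are high in the triple mutant (9.36 ± 0.43) and htz-1 (9.49 ± 0.20).

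In daf-2;htz-1 against daf-2, where 20.4% of all tested genes rose, 32 of 42 tested nlp genes rose (76.2%) and 1 fell, and 9 of 20 tested ins genes rose and 0 fell. In the triple mutant against daf-2;htz-1, where 17.4% of all tested genes fell, 25 nlp genes (59.5%) and 11 ins genes (55.0%) fell. In the daf-16 double mutant against daf-2, where 9.65% of all tested genes fell, 4 nlp genes (9.52%), 7 ins genes (35.0%) and 1 flp gene (4.17%) fell. The htz-1 effect in daf-16;daf-2 minus that in daf-2 was called lower for 13 and higher for 0 of 42 tested nlp genes. It was lower for 4 and higher for 4 of 20 tested ins genes, where 16.5% of all tested genes were lower and 10% higher. The highest mean was in daf-2;htz-1 for 49 of 70 nlp genes (70.0%) and for 21 of 37 ins genes (56.8%), and whether the flp share of 30 of 30 differs from these was not tested. By position, 9 of 11 tested members on X and 12 of 13 elsewhere rose in daf-2;htz-1 against daf-2, where 23.7% of all tested genes on X and 19.8% elsewhere rose. The median over all tested genes was 0.22 on X and 0.01 elsewhere. Within genotypes the members tended to deviate together. Over 276 pairs of tested members the correlation of deviations from the genotype mean over 24 libraries had a median of 0.223, and 80.8% were positive. The median was 0.0017 over a sample of pairs of all tested genes. Members of a library share its depth and scaling, and the source of this correlation was not tested.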

How the data were processed

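Total RNA of whole worms, extracted with Trizol and miRNeasy, was made into SMART-Seq2 libraries, which do not mark strand, per the labels' protocols. The deposited values are regularized log2 values of normalized counts, and the sources used here do not give the authors' settings, filters or any batch correction. The names bcl2fastq (2.20), kallisto (048.0) and WBcel235 appear without a role, per the submitters' processing notes. Gene symbols and positions came from Ensembl annotation release 115 on WBcel235. The depth of the libraries is unknown. flp-23 was not analysed here.

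Genes with a mean of at least 3 over the 24 libraries (14482) were fitted with limma 3.58.1 in R 4.3.3, with 6 genotype means, an intensity-trended prior variance, 18 residual degrees of freedom and no batch term. P-values were adjusted by Benjamini-Hochberg over all tested genes within each comparison, at a threshold of 0.05, and the fit was tested on simulated data with 200 changed genes. The flp genes and other gene lists were chosen with earlier results of these data known. Given in full are the called flp genes with the largest absolute difference, up to 4 per direction and comparison, and those called for a difference between backgrounds. Of the other lists, up to 3 called genes per direction with the smallest p in htz-1 against wt were eligible.

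The labels give each library a batch, 1 to 4, and each batch holds 1 library of each genotype, so libraries with the same number are paired by batch. The mean correlation of deviations from the genotype mean was 0.0504 for libraries of the same batch and -0.0163 for libraries of different batches. Alternatives were a replicate block, no filter, a minimum mean of 5, median centring, quantile normalization, no intensity trend, robust prior variance, array weights, a fit of the compared groups alone, and the omission of each library, of each batch and of 2 pairs of libraries. Of these pairs, triple mutant libraries 2 and 4 were added after seeing the data.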

Additional observations from a re-analysis of the deposited data

Results flagged for a closer look

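In 8 of 180 sets of 4 libraries (30 flp genes in 6 genotypes) 1 library stood far from the other 3 by Dixon's criterion, where chance gives about 1 in 20. Low libraries were daf-2;htz-1 library 2 for flp-4 (2.71, the others 3.09 to 3.12), flp-15 (7.52, the others 8.17 to 8.25) and flp-24 (4.70, the others 5.54 to 5.66), and triple mutant library 2 for flp-22 (3.57, the others 5.32 to 5.64). High libraries were daf-16 double mutant library 4 for flp-2 (3.31, the others 1.55 to 1.64), daf-16 double mutant library 2 for flp-12 (7.76, the others 7.30 to 7.36), htz-1 library 4 for flp-21 (2.07, the others 1.06 to 1.20) and daf-2 library 2 for flp-27 (6.83, the others 5.94 to 6.03).

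The htz-1 effect differed between backgrounds by limma's test of the difference itself for 12 genes. In daf-2 minus wt it was larger for flp-8 (1.33), flp-9 (1.28), flp-11 (1.51), flp-14 (1.70) and flp-19 (1.95). Of these, the flp-11 call ended with the replicate block (adjusted p = 0.0523) and in 20 of 30 alternatives, and the flp-14 call in 19 of 30. In daf-16;daf-2 minus daf-2 it was smaller for flp-3 (-1.60), flp-7 (-1.95), flp-8 (-1.48), flp-9 (-1.63), flp-11 (-1.53), flp-12 (-1.28), flp-13 (-1.99), flp-14 (-1.57), flp-16 (-1.39), flp-18 (-1.53), flp-19 (-1.65) and flp-34 (-1.88). The daf-2 and daf-2;htz-1 libraries enter both tests.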

How the results depend on the processing

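Every difference called by limma kept its sign in all alternatives run. Over the single-gene differences of tested members, 4640 alternative values stayed on the same side of the threshold, 341 lost a call and 92 gained one. The counts of called flp genes in daf-2;htz-1 against daf-2 (21, and 16 to 23 with a library or batch omitted) and htz-1 against wt (9, and 6 to 10) stayed within 1.5 times in all alternatives. In the triple mutant against daf-2;htz-1 the count of 18 was 9 to 19 with a library or batch omitted and 7 without triple mutant libraries 2 and 4. In the triple mutant against the daf-16 double mutant the count of 6 was 2 to 7 with omissions. In daf-2;htz-1 against htz-1 the count of 9 was 3 to 9 with omissions, and 16 with array weights and with the compared groups alone. In daf-2 against wt the count of 2 was 1 to 2 with omissions and 1 with the compared groups alone. In the daf-16 double mutant against daf-2 the count of 2 was 1 to 4 with omissions, and 1 with the replicate block, no filter, a minimum mean of 5, quantile normalization, robust prior variance, the compared groups alone, and without wt library 1 and daf-2 library 1.

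For the htz-1 effect in daf-2 minus wt the count of 5 was 0 to 5 with omissions, and 3 without the filter and with the compared groups alone. For the effect in daf-16;daf-2 minus daf-2 the count of 12 was 6 to 14 with omissions, 19 with array weights and 4 without triple mutant libraries 2 and 4, and the median of 30 genes was -0.73 with centred libraries. The replicate block, which pairs libraries by batch, moved no other count by over 1.5 times. Of single-gene calls it ended 2, flp-13 in the daf-16 double mutant against daf-2 and flp-11 in the effect in daf-2 minus wt, and added 4, flp-17 in htz-1 against wt and in the triple mutant against the daf-16 double mutant, flp-24 in daf-2;htz-1 against htz-1 and flp-5 in the effect in daf-16;daf-2 minus daf-2. It gave 10 calls in htz-1 against wt and 21 in daf-2;htz-1 against daf-2. Depth is unknown, so values of the 6 untested genes carry no limit of detection. Where a count moved, the cause was not tested.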
